A study of Homo sapiens with 18 samples.

Results

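The genes described here are 39 interferon-stimulated and RNA sensing genes, chosen by name as RNA sensors, interferon signalling factors and genes that interferon induces. They are 39 of the 23571 named genes measured in SW48 cells, an established line from a human colon adenocarcinoma. By role, 5 sense RNA, 5 carry the interferon signal, 11 act on viral RNA or its translation, 5 belong to the ISG15 system and 13 are other antiviral genes. Of the 39 genes, 29 reached at least 1 FPKM (fragments mapped to a gene, scaled to transcript length and to the mapped fragments of the library) in at least 3 of the 18 libraries and were tested, and the other 10 never reached 1 FPKM. Those 29 are therefore the listed genes that were measurable in at least one setting, and they do not speak for all 39.

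RNA sequencing was done on 18 libraries, 3 in each of 6 groups, after siRNA against CHD4 (siCHD4) or a negative control siRNA. CHD4 is the ATPase of the NuRD chromatin remodelling complex, DNMT1 is the methyltransferase that maintains DNA methylation, and decitabine is a cytidine analogue that traps DNA methyltransferases on DNA. The groups were siCHD4 plus siDNMT1, control siRNA plus siDNMT1, siCHD4 plus decitabine, control siRNA plus decitabine, siCHD4, and control siRNA. In the siDNMT1 groups cells received siDNMT1 on days 1, 3 and 5, then siCHD4 or control siRNA on days 7 and 8, with RNA extraction on day 11. In the decitabine groups cells received 50 nM decitabine on days 1, 2 and 3 together with siCHD4 or control siRNA on days 1 and 2, with extraction on day 5. In the remaining groups siCHD4 or control siRNA was given on days 1, 3 and 6, with extraction on day 8. Groups that share a background therefore share a schedule, while in comparisons with control siRNA alone the treatment and the day of RNA extraction cannot be told apart. Where siCHD4 effects are compared between backgrounds, background and schedule cannot be told apart either. RNA came from a Trizol or an RNeasy extraction, and which library had which is not given. Nothing in the labels says that the 3 libraries of a group were separate cultures, so the p-values reflect only how these libraries vary, and that variation may be technical.

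Cells detect double-stranded RNA with the cytosolic helicases RIG-I (DDX58) and MDA5 (IFIH1) and with the endosomal receptor TLR3. The helicases signal through MAVS on mitochondria to the transcription factors IRF3 and IRF7, which switch on interferon genes. Secreted interferon then acts through its receptors on a complex that holds STAT2 and IRF9 and binds the interferon-stimulated response element in the promoters of induced genes. In colorectal cancer cells, inhibitors of DNA methylation are known to raise genes of this pathway.

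The targeted transcripts followed the labels. CHD4 stood at 41.6% of its control level with siDNMT1, at 72.1% with decitabine and at 49.9% alone, and DNMT1 stood at 27.6% with control siRNA plus siDNMT1 against control siRNA (exact two-sided permutation p = 0.1 for each, the smallest that 3 against 3 libraries can give). Between 11477 and 12502 genes per library reached 1 FPKM, and 1 fragment was worth 4.11-fold more FPKM in control siRNA plus decitabine replicate 0 than in control siRNA replicate 0, which makes it the shallowest library by this measure. In control siRNA replicate 2 the deviations from the group mean correlated across genes with those of siCHD4 replicates 0 and 1 (r = 0.173 and 0.23), and in siCHD4 replicate 2 with those of control siRNA replicates 0 and 1 (r = 0.197 and 0.196). Correlations of this size were not limited to these 2 libraries, and the highest was 0.239, between control siRNA plus decitabine replicate 0 and siCHD4 replicate 1. Whether control siRNA replicate 2 and siCHD4 replicate 2 were exchanged was not tested. CHD4 itself followed the labels of these 2 libraries, at 23.2 FPKM in siCHD4 replicate 2 and 68.2 FPKM in control siRNA replicate 2. Values of siCHD4 alone rest on both libraries. Over all comparisons and differences of effects described below, a fit without both added 28 calls among the tested genes and lost 5. Only part of these changes is given below. Markers of other cell types moved with the groups. The summed level of 11 colon epithelial markers was 1055 to 1098 FPKM in siCHD4 plus siDNMT1 and 1800 to 1879 FPKM in control siRNA plus siDNMT1, and 1197 to 1365 FPKM in siCHD4 and 2015 to 2128 FPKM in control siRNA. That lower sum came from the keratins KRT8 and KRT18, both called lower with siDNMT1 and alone, while KRT19, CDX2, VIL1, CDH1 and CDH17 were called higher with siDNMT1, so 5 of the 8 tested markers were higher and 2 lower (median log2 change 0.69). In each group 6 to 8 of the 11 reached 1 FPKM in all libraries, and CDX1 was listed at 0 in every group but siCHD4 plus decitabine. The sum of 12 blood cell markers was 9.07 to 10.1 FPKM in siCHD4 plus siDNMT1, where 4 of the 12 reached 1 FPKM, 3.01 to 4.52 FPKM in control siRNA plus siDNMT1, and 2.62 to 4.61 FPKM in control siRNA, with the haemoglobin gene HBB at 0 in every group. The sum of 9 fibroblast markers was 14.2 to 16.0 FPKM in siCHD4 plus siDNMT1, where 3 of the 9 reached 1 FPKM, 3.99 to 4.11 FPKM in control siRNA plus siDNMT1, and 0.121 to 0.490 FPKM in control siRNA, with the collagen gene COL3A1 at 0 in every group. The part of these shifts in the results below was not tested.

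RefSeq promoter windows of 300 bases (250 before and 50 after the start of the gene) were available for 31 of the 39 genes. The core of the interferon-stimulated response element, GAAA followed after any 2 bases by GAAA, on either strand, occurred in the windows of 17 of these 31 genes (54.8%), against 4.38% of the 27305 genes with a window. A match describes the letters and is not evidence of binding. The windows below show how unlike these promoters are: ISG15 carries overlapping matches in a window with many CpG pairs (observed over expected 0.752), IFIT3 carries matches on the opposite strand, IFI44L carries matches in a window with 0 CpG pairs, and in IRF9 these letters are not present in this window. Capitals mark the matches.
ISG15 promoter, GRCh38.p14 chr1:1013247-1013546, plus strand: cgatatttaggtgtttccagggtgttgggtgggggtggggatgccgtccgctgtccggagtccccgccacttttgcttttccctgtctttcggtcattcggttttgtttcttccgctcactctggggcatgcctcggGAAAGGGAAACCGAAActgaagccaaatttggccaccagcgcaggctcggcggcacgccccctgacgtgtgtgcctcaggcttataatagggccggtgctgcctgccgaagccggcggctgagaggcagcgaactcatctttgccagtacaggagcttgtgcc
IFIT3 promoter, GRCh38.p14 chr10:89327747-89328046, plus strand: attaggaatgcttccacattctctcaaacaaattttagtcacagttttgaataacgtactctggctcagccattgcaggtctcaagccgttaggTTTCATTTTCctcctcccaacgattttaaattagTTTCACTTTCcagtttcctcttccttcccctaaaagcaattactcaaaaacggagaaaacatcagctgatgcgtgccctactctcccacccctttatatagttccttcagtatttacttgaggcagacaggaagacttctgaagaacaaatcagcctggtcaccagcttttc
IFI44L promoter, GRCh38.p14 chr1:78620198-78620497, plus strand: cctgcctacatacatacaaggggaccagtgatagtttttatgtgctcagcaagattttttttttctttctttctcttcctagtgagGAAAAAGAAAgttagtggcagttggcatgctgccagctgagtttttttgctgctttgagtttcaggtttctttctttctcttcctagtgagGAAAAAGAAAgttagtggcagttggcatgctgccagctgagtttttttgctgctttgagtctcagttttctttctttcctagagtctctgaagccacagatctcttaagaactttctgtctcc
IRF9 promoter, GRCh38.p14 chr14:24161015-24161314, plus strand: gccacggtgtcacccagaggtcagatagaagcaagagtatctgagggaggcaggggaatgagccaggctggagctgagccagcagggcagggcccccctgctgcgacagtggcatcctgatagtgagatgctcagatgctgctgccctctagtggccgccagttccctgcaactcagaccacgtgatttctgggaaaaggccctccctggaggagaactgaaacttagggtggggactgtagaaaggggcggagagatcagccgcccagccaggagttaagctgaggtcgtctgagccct
The median CpG observed over expected was 0.749 in the 24 tested genes with a window and 0.235 in the 7 untested ones, against 0.634 over all genes with a window. Where a gene had several windows, its highest value was taken. Of the 7 untested genes with a window, 4 carried the motif (HERC5, RSAD2, IFI44 and IFI44L), as did 13 of the 24 tested ones.

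In control siRNA 8 of the 39 genes averaged 10 FPKM or more, 20 averaged 1 to 10 FPKM, 7 lay above 0 and under 1 FPKM and 4 were listed at 0 in all 3 libraries. The RNA editing enzyme ADAR was the most abundant, at 80.9 ± 7.07 FPKM in siCHD4 plus siDNMT1 and 70.1 ± 5.00 FPKM in control siRNA (mean ± SD, n = 3 each). Of the 29 tested genes, 14 had their highest group mean in siCHD4 plus siDNMT1 and 9 had it in control siRNA, so the listed genes did not move as a block. The same count over all genes was not made, so whether this split is particular to the 29 is not known.

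**Figure D1:**
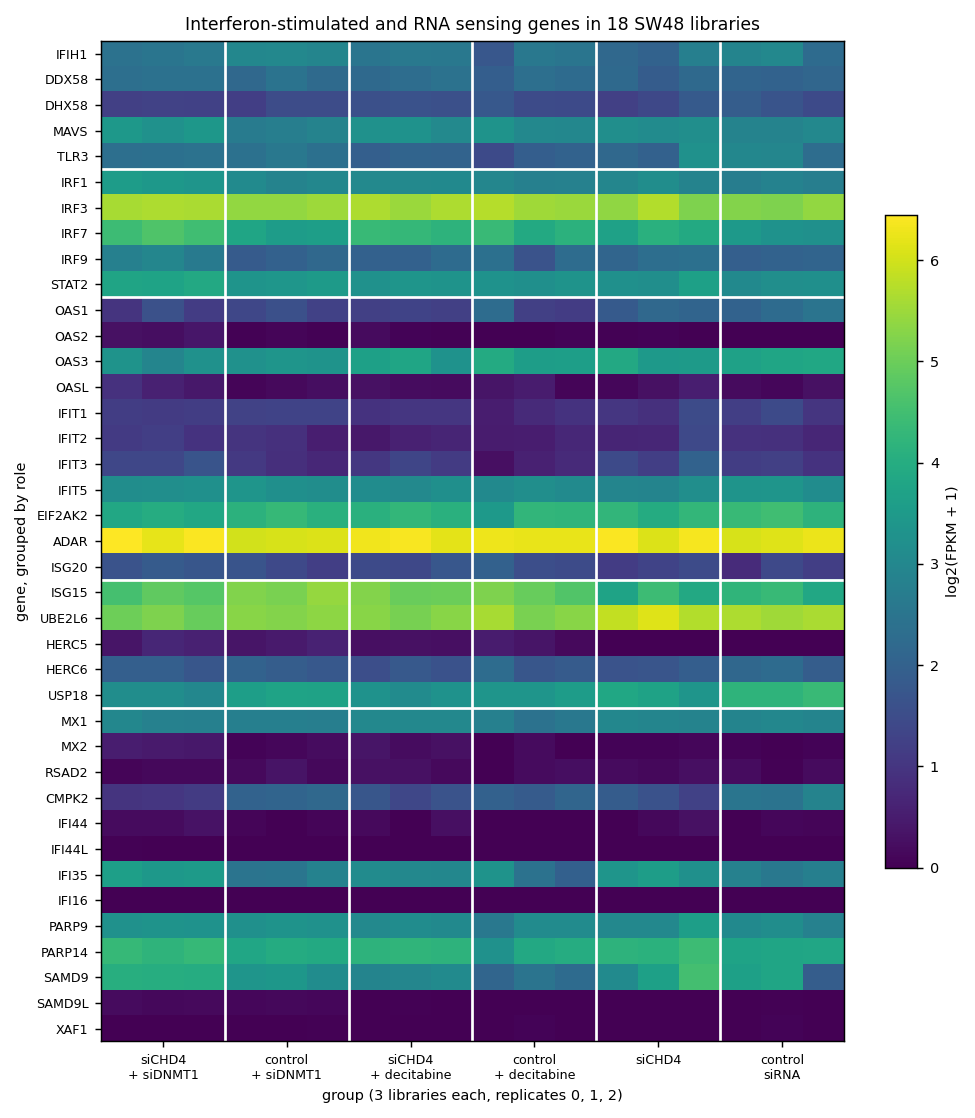
Level of each of the 39 genes (rows, grouped by role) in each of the 18 libraries (columns, 3 per group), as log2(FPKM + 1). ADAR, IRF3 and UBE2L6 are bright in every group, while IFI16, IFI44L and XAF1 are at or near 0 throughout.

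Changes were tested with limma on the log2(FPKM + 1) scale, which understates the change of low genes, and a gene is called higher or lower at an adjusted p below 0.05 over all 12809 genes tested. In siCHD4 plus siDNMT1 against control siRNA plus siDNMT1, 9 of the 29 genes were called higher and 3 lower, against 24.8% higher and 24.6% lower over all genes tested. In siCHD4 plus decitabine against control siRNA plus decitabine 1 was called higher and 0 lower (all genes 3.26% and 1.31%), and 4 of the 29 had an unadjusted p under 0.05. In siCHD4 against control siRNA 2 were called higher and 2 lower (all genes 9.58% and 9.71%). In the same 3 comparisons the libraries of the groups did not overlap, with siCHD4 above, for 12 genes with siDNMT1 (all genes 33.7%), 5 with decitabine (13.8%) and 7 alone (16.6%). With siCHD4 below, they did not overlap for 7 genes with siDNMT1 (all genes 36.4%), 2 with decitabine (13.2%) and 2 alone (16.9%). The share called higher with siDNMT1 was near the background share of all genes, and the shares in the other backgrounds rest on 1 to 4 genes. Without control siRNA plus decitabine replicate 0, siCHD4 against control siRNA had 4 of the 29 higher and 4 lower, and without siCHD4 replicate 2 it had 4 lower. With decitabine, the 1 higher call was lost without control siRNA plus decitabine replicate 1 or siCHD4 plus decitabine replicate 0 or 1, and 3 were called higher without siCHD4 replicate 2.

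The median log2 change of the 29 genes under siCHD4 was 0.10 with siDNMT1 (all genes -0.01), 0.10 with decitabine (all genes 0.01) and 0.09 alone (all genes 0.00). Against control siRNA alone, siCHD4 plus siDNMT1 had 11 of the 29 higher and 7 lower (all genes 29.3% and 29.8%; medians 0.25 and 0.00). Control siRNA plus siDNMT1 had 1 higher and 3 lower (all genes 6.94% and 4.4%; medians -0.03 and -0.01). For siCHD4 plus decitabine the counts were 6 higher and 6 lower (all genes 18% and 16.9%; medians 0.06 and 0.00), and for control siRNA plus decitabine 3 higher and 6 lower (all genes 9.6% and 8.63%; medians -0.16 and -0.02). Libraries did not overlap with those of control siRNA for 15 genes above and 7 below in siCHD4 plus siDNMT1 (all genes 34.8% and 35.7%) and for 6 above and 7 below in control siRNA plus siDNMT1 (19.4% and 22.2%). The same held for 10 above and 7 below in siCHD4 plus decitabine (27% and 28.8%) and for 4 above and 6 below in control siRNA plus decitabine (16.9% and 17.7%). These 4 comparisons share the control siRNA libraries.

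Among the interferon signalling factors every call was in the higher direction. In siCHD4 plus siDNMT1 all 5 were called higher than in control siRNA (all genes 29.3%), 4 of the 5 were called higher than in control siRNA plus siDNMT1 (all genes 24.8%), and 0 of the 5 were called lower in any of the 7 comparisons of groups. IRF7, which amplifies interferon gene transcription and lies at GRCh37 chr11:612553-615983 on the minus strand, was listed at 20.4, 24.3 and 21.0 FPKM in siCHD4 plus siDNMT1 and at 12.8, 10.9 and 11.2 FPKM in control siRNA plus siDNMT1. It stood at 19.2, 18.7 and 17.1 FPKM in siCHD4 plus decitabine and at 19.8, 14.0 and 16.8 FPKM in control siRNA plus decitabine. It stood at 12.0, 16.0 and 14.2 FPKM in siCHD4 and at 10.1, 8.74 and 8.46 FPKM in control siRNA. The libraries of siCHD4 lay above those of control siRNA with siDNMT1 and alone, and they overlapped with decitabine, where both groups were already above control siRNA. The log2 change under siCHD4 was 0.86 ± 0.13 with siDNMT1 (SE, limma adjusted p = 7.77e-05), 0.13 ± 0.13 with decitabine (adjusted p = 0.590) and 0.57 ± 0.13 alone (adjusted p = 0.00566). IRF7 was called higher than in control siRNA with siCHD4 plus siDNMT1 (log2 change 1.18), siCHD4 plus decitabine (0.94) and control siRNA plus decitabine (0.81), and not with control siRNA plus siDNMT1 (0.33, adjusted p = 0.113). In order of group means, siCHD4 plus decitabine and control siRNA plus decitabine overlapped, as did siCHD4 with both control siRNA plus decitabine and control siRNA plus siDNMT1. In bulk RNA a change in the number of expressing cells and a change in RNA per cell cannot be told apart. All 5 IRF7 calls held with any 1 library left out, and the call of siCHD4 alone was lost in a fit on the compared groups only (adjusted p = 0.0721).

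IRF9 (GRCh37 chr14:24630443-24637252, plus strand), the DNA-binding subunit of the interferon-activated complex, stood at 5.98, 6.73 and 5.25 FPKM in siCHD4 plus siDNMT1 and at 2.59, 3.00 and 3.55 FPKM in control siRNA plus siDNMT1. It stood at 3.02, 2.99 and 3.79 FPKM in siCHD4 plus decitabine and at 4.23, 2.14 and 3.84 FPKM in control siRNA plus decitabine. It stood at 3.28, 4.04 and 4.18 FPKM in siCHD4 and at 2.86, 3.06 and 3.22 FPKM in control siRNA. The 3 libraries of siCHD4 plus siDNMT1 lay above the other 15 libraries. The log2 change was 0.79 ± 0.16 with siDNMT1 (limma adjusted p = 0.00115), -0.02 ± 0.16 with decitabine (adjusted p = 0.965) and 0.25 ± 0.16 alone (adjusted p = 0.300).

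STAT2 (GRCh37 chr12:56735381-56753987, minus strand), the partner of IRF9 in that complex, stood at 12.6, 12.5 and 14.0 FPKM in siCHD4 plus siDNMT1 and at 9.17, 9.47 and 10.5 FPKM in control siRNA plus siDNMT1. It stood at 8.56, 9.24 and 9.01 FPKM in siCHD4 plus decitabine and at 8.80, 8.20 and 8.98 FPKM in control siRNA plus decitabine. It stood at 8.37, 8.05 and 11.6 FPKM in siCHD4 and at 7.36, 8.04 and 8.21 FPKM in control siRNA. All 3 libraries of siCHD4 plus siDNMT1 were above the other 15, the nearest of which was siCHD4 replicate 2. The log2 change with siDNMT1 was 0.39 ± 0.11 (limma adjusted p = 0.00801).

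IRF1, an activator that interferon itself induces, stood at 10.8, 9.86 and 9.31 FPKM in siCHD4 plus siDNMT1 and at 7.44, 6.32 and 6.92 FPKM in control siRNA plus siDNMT1. In siCHD4 plus decitabine it stood at 7.15, 7.25 and 7.28 FPKM, and in control siRNA plus decitabine at 6.77, 6.04 and 6.18 FPKM. In siCHD4 it stood at 6.84, 7.89 and 6.43 FPKM, and in control siRNA at 5.67, 6.25 and 5.76 FPKM. The siCHD4 libraries were above their controls in each background, and the call was made with siDNMT1 (log2 change 0.48 ± 0.09, limma adjusted p = 0.000451) and missed with decitabine (0.17 ± 0.09, adjusted p = 0.299) and alone (0.22 ± 0.09, adjusted p = 0.0866). IRF3, the constitutive factor that starts the response, was listed far higher, between 35.9 and 51.8 FPKM in all libraries, and was called against control siRNA with siCHD4 plus siDNMT1 (log2 change 0.34, adjusted p = 0.0153) and siCHD4 plus decitabine (0.31, adjusted p = 0.0417). The first IRF3 call was lost without control siRNA replicate 1 (adjusted p = 0.0559) and the second in 10 of the 18 fits with 1 library left out (adjusted p up to 0.127). IRF3 overlaps BCL2L12 on the opposite strand, and whether the counting used strand is not given in the sources used here.

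**Figure D2:**
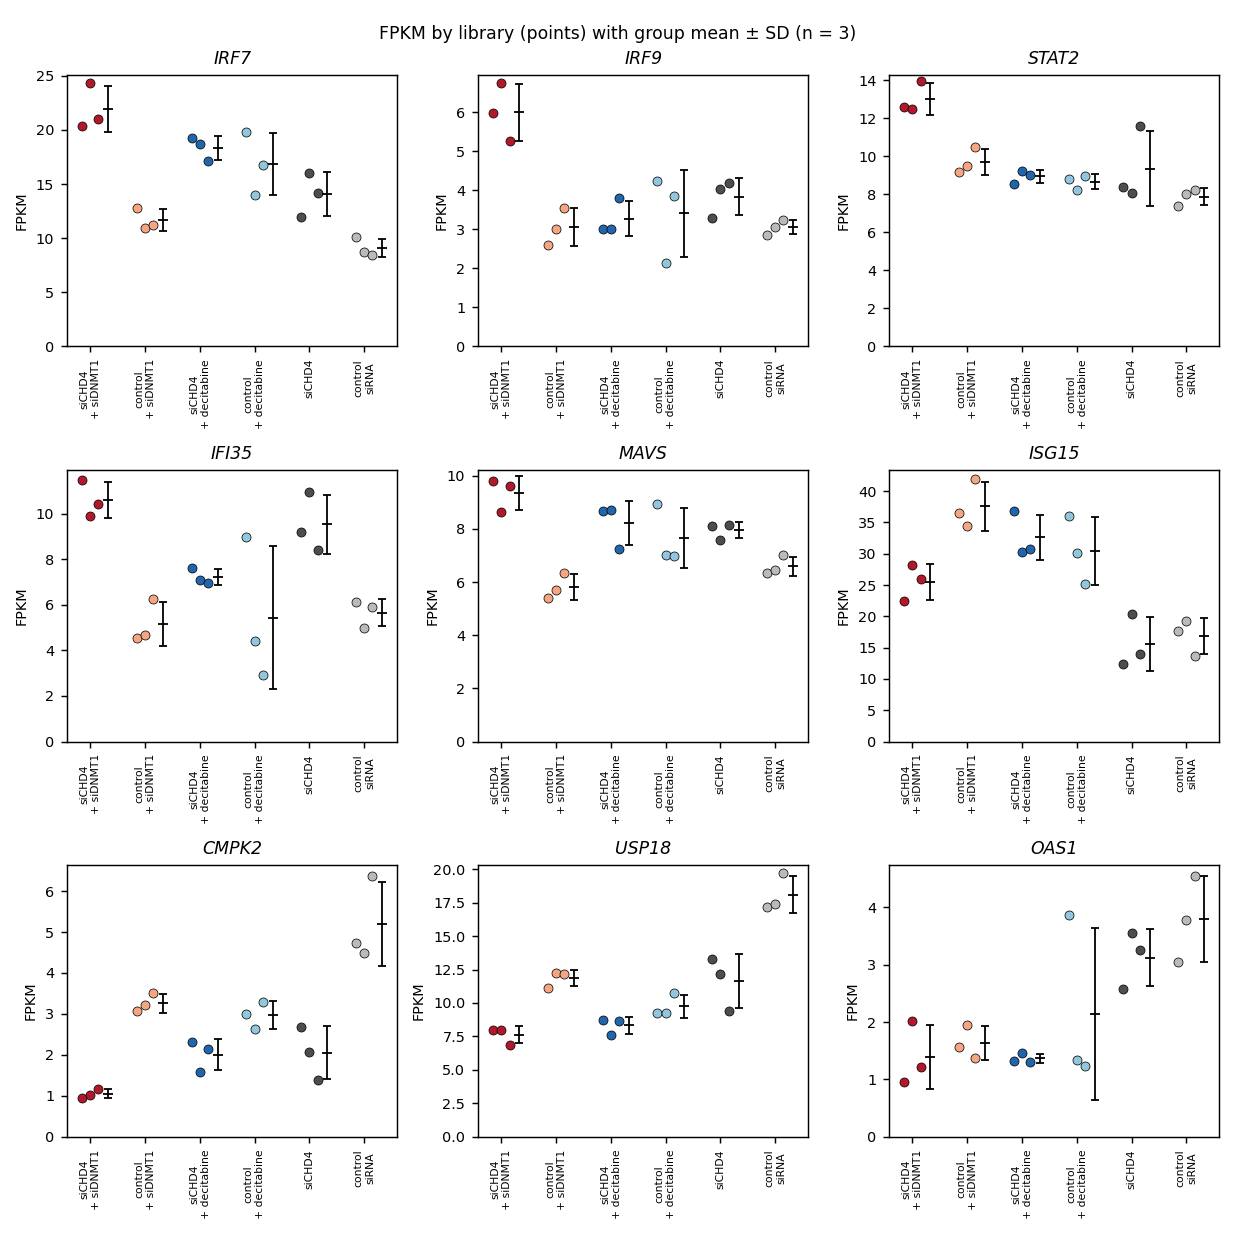
FPKM of 9 genes in every library (points) with the group mean and SD (n = 3) to the right of the points, for the 6 groups on the x axis. IRF7, IRF9 and STAT2 are highest in siCHD4 plus siDNMT1, ISG15 is highest in control siRNA plus siDNMT1, and CMPK2, USP18 and OAS1 are highest in control siRNA.

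Among the 5 RNA sensing genes, 1 was called higher and 0 lower under siCHD4 with siDNMT1, the adaptor MAVS (all genes 24.8% and 24.6%). With decitabine and alone 0 of the 5 were called. With control siRNA replicate 2 and siCHD4 replicate 2 both left out, TLR3, IFIH1 and DHX58 were called lower with siCHD4 alone. A contrast between the adaptor and the receptors is therefore not shown. MAVS (GRCh37 chr20:3827446-3856770, plus strand) stood at 9.81, 8.63 and 9.63 FPKM in siCHD4 plus siDNMT1 and at 5.39, 5.72 and 6.34 FPKM in control siRNA plus siDNMT1. It stood at 8.65, 8.72 and 7.26 FPKM in siCHD4 plus decitabine and at 8.95, 7.02 and 6.96 FPKM in control siRNA plus decitabine. It stood at 8.10, 7.60 and 8.16 FPKM in siCHD4 and at 6.36, 6.44 and 7.01 FPKM in control siRNA. The groups were separated with siDNMT1 and alone and overlapped with decitabine. MAVS was called higher with siDNMT1 (log2 change 0.60 ± 0.10, limma adjusted p = 0.000216) and not alone (0.24 ± 0.10, adjusted p = 0.109) or with decitabine (0.10 ± 0.10, adjusted p = 0.610). It was also called higher than in control siRNA with siCHD4 plus siDNMT1 (0.45, adjusted p = 0.00143) and with siCHD4 plus decitabine (0.27, adjusted p = 0.0451), the last of which was lost in 10 of the 18 fits with 1 library left out (adjusted p up to 0.157) and under quantile normalization (0.16, adjusted p = 0.257).

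TLR3 stood at 4.15, 4.25 and 4.37 FPKM in siCHD4 plus siDNMT1 and at 4.32, 4.99 and 4.22 FPKM in control siRNA plus siDNMT1. It stood at 2.90, 3.22 and 3.17 FPKM in siCHD4 plus decitabine and at 1.73, 2.82 and 3.11 FPKM in control siRNA plus decitabine. It stood at 3.50, 2.99 and 8.56 FPKM in siCHD4 and at 6.85, 6.81 and 3.91 FPKM in control siRNA. The decitabine groups were the lowest, and in the groups without siDNMT1 or decitabine replicate 2 went against its own group on both sides. TLR3 was called lower than in control siRNA with control siRNA plus decitabine (log2 change -0.94 ± 0.26, limma adjusted p = 0.0221) and with siCHD4 plus decitabine (-0.71 ± 0.26, adjusted p = 0.0458). The first call was lost without control siRNA replicate 0 or 1 or control siRNA plus decitabine replicate 0 (adjusted p up to 0.0892), and the second in 12 of the 18 fits with 1 library left out (adjusted p up to 0.146). For siCHD4 alone TLR3 had a log2 change of -0.27 (adjusted p = 0.502), and of -0.89 (adjusted p = 0.00249) when control siRNA replicate 2 and siCHD4 replicate 2 were both left out.

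IFIH1 showed the same split among libraries. It stood at 4.40, 4.69 and 5.05 FPKM in siCHD4 plus siDNMT1 and at 6.91, 7.04 and 6.61 FPKM in control siRNA plus siDNMT1, without overlap, yet its log2 change of -0.46 ± 0.23 was not called (limma adjusted p = 0.105). In siCHD4 it stood at 3.52, 3.09 and 5.92 FPKM and in control siRNA at 6.46, 7.01 and 3.81 FPKM, with replicate 2 again against its group. With both of those replicates left out, IFIH1 was called lower with siDNMT1 (-0.46, adjusted p = 0.0298) and alone (-0.85, adjusted p = 0.0130). RIG-I, listed under its older symbol DDX58, ranged from 2.69 to 4.50 FPKM and was called higher once, in siCHD4 plus siDNMT1 against control siRNA (log2 change 0.32, adjusted p = 0.0343). DHX58, a regulator of the other helicases, was called lower in the same comparison (-0.43, adjusted p = 0.0224). Under quantile normalization the DDX58 change was 0.0052 (adjusted p = 0.977), so it depended on the scaling. The DDX58 call was also lost without any 1 of the 6 libraries compared (adjusted p 0.0511 to 0.0898), and the DHX58 call without control siRNA replicate 0 or 1 or siCHD4 plus siDNMT1 replicate 0 or 2 (adjusted p up to 0.110). DHX58 was called lower with siCHD4 alone when control siRNA replicate 2 and siCHD4 replicate 2 were both left out (-0.48, limma adjusted p = 0.030).

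Of the 9 tested genes whose products act on viral RNA or its translation, 2 were called higher with siCHD4 plus siDNMT1 (IFIT3 and ADAR), near the 24.8% of all genes. With decitabine and alone 0 of the 9 were called, where 3.26% and 9.58% of all genes were called higher, so a count of 0 says little about these genes. IFIT3, which works with IFIT1 to bind foreign RNA, stood at 1.58, 1.60 and 2.20 FPKM in siCHD4 plus siDNMT1 and at 1.1, 0.824 and 0.653 FPKM in control siRNA plus siDNMT1. It stood at 1.07, 1.53 and 1.17 FPKM in siCHD4 plus decitabine and at 0.198, 0.518 and 0.697 FPKM in control siRNA plus decitabine. It stood at 1.72, 1.30 and 3.10 FPKM in siCHD4 and at 1.25, 1.34 and 0.922 FPKM in control siRNA. The siCHD4 libraries lay above their controls with siDNMT1 and with decitabine and overlapped them alone. The log2 changes were 0.59 ± 0.19 with siDNMT1 (limma adjusted p = 0.0183), 0.63 ± 0.19 with decitabine (adjusted p = 0.0787) and 0.45 ± 0.19 alone (adjusted p = 0.109). The call was lost without control siRNA plus siDNMT1 replicate 2 (adjusted p = 0.0690) or siCHD4 plus siDNMT1 replicate 2 (adjusted p = 0.0808), and under quantile normalization, where the change was 0.26 (adjusted p = 0.252). IFIT3 was called higher with decitabine when control siRNA replicate 2 and siCHD4 replicate 2 were both left out (0.63, limma adjusted p = 0.0166).

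ADAR, which edits double-stranded RNA, was listed at 86.3, 72.9 and 83.5 FPKM in siCHD4 plus siDNMT1 and at 62.9, 66.1 and 67.6 FPKM in control siRNA plus siDNMT1, without overlap (log2 change 0.30 ± 0.09, limma adjusted p = 0.0148). That call was lost without control siRNA plus siDNMT1 replicate 0 or siCHD4 plus siDNMT1 replicate 0 or 2 (adjusted p up to 0.0703). IFIT1 and ISG20 were named through the decitabine comparison. IFIT1 stood at 0.426, 0.696 and 0.941 FPKM in control siRNA plus decitabine and at 1.29, 1.72 and 0.985 FPKM in control siRNA. ISG20, an exonuclease that degrades RNA, stood at 2.97, 1.94 and 1.79 FPKM in control siRNA plus decitabine and at 0.722, 1.7 and 1.30 FPKM in control siRNA. The IFIT1 libraries lay lower with decitabine and those of ISG20 higher, without overlap. The log2 changes were -0.47 for IFIT1 (limma adjusted p = 0.0426), -0.57 for IFIT3 (adjusted p = 0.0487) and 0.54 for ISG20 (adjusted p = 0.0486). Each of these calls was lost in 12 or more of the 18 fits with 1 library left out (adjusted p up to 0.182 for IFIT1, 0.161 for IFIT3 and 0.210 for ISG20).

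OAS1 (GRCh37 chr12:113343661-113371024, plus strand), which makes the messenger that activates RNase L, was listed at 0.947, 2.02 and 1.22 FPKM in siCHD4 plus siDNMT1 and at 1.57, 1.96 and 1.38 FPKM in control siRNA plus siDNMT1. It stood at 1.33, 1.46 and 1.31 FPKM in siCHD4 plus decitabine and at 3.88, 1.33 and 1.23 FPKM in control siRNA plus decitabine. It stood at 2.58, 3.55 and 3.26 FPKM in siCHD4 and at 3.05, 3.79 and 4.55 FPKM in control siRNA. All libraries with siDNMT1 or decitabine were below those of the other groups, except the shallow control siRNA plus decitabine replicate 0. OAS1 was called lower than in control siRNA with siCHD4 plus siDNMT1 (log2 change -1.01 ± 0.24, limma adjusted p = 0.00221), siCHD4 plus decitabine (-1.01 ± 0.24, adjusted p = 0.00503) and control siRNA plus siDNMT1 (-0.86 ± 0.24, adjusted p = 0.0322). The last call was lost without control siRNA replicate 1 or 2 or any replicate of control siRNA plus siDNMT1 (adjusted p up to 0.116), and the others held. With control siRNA plus decitabine the log2 change was -0.70 (adjusted p = 0.0586). Under siCHD4 itself OAS1 was not called in any background.

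OAS3, its larger relative, was called lower once, in siCHD4 plus siDNMT1 against control siRNA (8.04 ± 1.20 against 12.7 ± 0.748 FPKM, SD, n = 3 each; log2 change -0.61, limma adjusted p = 0.00226). In the same comparison EIF2AK2, the kinase PKR that stops translation on binding double-stranded RNA, was called lower (-0.42, adjusted p = 0.0378) and ISG20 higher (0.59, adjusted p = 0.00997). The EIF2AK2 call was lost without control siRNA replicate 0 or 1 or siCHD4 plus siDNMT1 replicate 0 or 2 (adjusted p up to 0.123), and the ISG20 call without control siRNA replicate 0 (adjusted p = 0.0629). Under quantile normalization the ISG20 change in that comparison was 0.13 (adjusted p = 0.552). IFIT2 ranged from 0.337 to 1.67 FPKM and IFIT5 from 6.50 to 9.32 FPKM, and neither was called in any comparison of groups. With control siRNA replicate 2 and siCHD4 replicate 2 both left out, IFIT5 was called lower with siCHD4 alone (-0.43, adjusted p = 0.00691). IFIT1, IFIT2 and IFIT3 overlap LIPA on the opposite strand in the GENCODE models.

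In the ISG15 system the modifier moved with siDNMT1 and decitabine, and the enzyme that removes it moved the other way. ISG15 (GRCh37 chr1:936518-949920, plus strand), a ubiquitin-like protein, was listed at 22.5, 28.2 and 25.9 FPKM in siCHD4 plus siDNMT1 and at 36.5, 34.4 and 41.9 FPKM in control siRNA plus siDNMT1. It stood at 36.8, 30.3 and 30.8 FPKM in siCHD4 plus decitabine and at 36.0, 30.2 and 25.1 FPKM in control siRNA plus decitabine. It stood at 12.4, 20.4 and 13.9 FPKM in siCHD4 and at 17.7, 19.2 and 13.7 FPKM in control siRNA. Every library with siDNMT1 or decitabine was above every library without, and with siDNMT1 the siCHD4 libraries were below their controls. ISG15 was called higher than in control siRNA with control siRNA plus siDNMT1 (log2 change 1.12 ± 0.17, limma adjusted p = 0.000477), siCHD4 plus decitabine (0.92, adjusted p = 0.000968), control siRNA plus decitabine (0.81, adjusted p = 0.00482) and siCHD4 plus siDNMT1 (0.58, adjusted p = 0.010). Under siCHD4 it was called lower with siDNMT1 (-0.54 ± 0.17, adjusted p = 0.0184) and not with decitabine (0.11, adjusted p = 0.752) or alone (-0.12, adjusted p = 0.660). The lower call was lost without control siRNA plus siDNMT1 replicate 2 or siCHD4 plus siDNMT1 replicate 0 (adjusted p = 0.0709 and 0.0790), and the higher call of siCHD4 plus siDNMT1 without control siRNA replicate 2 (adjusted p = 0.0554).

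USP18 (GRCh37 chr22:18632885-18660164, plus strand), which removes ISG15 and dampens the interferon receptor, stood at 7.95, 8.00 and 6.88 FPKM in siCHD4 plus siDNMT1 and at 11.2, 12.3 and 12.2 FPKM in control siRNA plus siDNMT1. It stood at 8.71, 7.62 and 8.68 FPKM in siCHD4 plus decitabine and at 9.24, 9.27 and 10.7 FPKM in control siRNA plus decitabine. It stood at 13.3, 12.2 and 9.37 FPKM in siCHD4 and at 17.2, 17.4 and 19.7 FPKM in control siRNA. Control siRNA held the 3 highest libraries of all, and the siCHD4 libraries were below their controls in each background. Under siCHD4 the log2 change was -0.58 ± 0.11 with siDNMT1 (limma adjusted p = 0.000693), -0.20 ± 0.11 with decitabine (adjusted p = 0.329) and -0.61 ± 0.11 alone (adjusted p = 0.00186). It was called lower than in control siRNA in each of the other 4 groups as well, with log2 changes of -1.15 in siCHD4 plus siDNMT1, -1.03 in siCHD4 plus decitabine, -0.57 in control siRNA plus siDNMT1 and -0.83 in control siRNA plus decitabine. All 6 calls held with any 1 library left out, and the call of siCHD4 alone was lost in a fit on the compared groups only (adjusted p = 0.0733). USP18 has a near-identical copy, USP41, that was not analysed here, so how the authors' counting split their reads is uncertain.

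UBE2L6, the enzyme that conjugates ISG15, averaged 32.4 ± 2.99 FPKM in siCHD4 plus siDNMT1, 36.9 ± 2.63 FPKM in siCHD4 plus decitabine, 59.1 ± 9.64 FPKM in siCHD4 and 48.0 ± 2.30 FPKM in control siRNA (SD, n = 3 each). The siCHD4 libraries, at 56.7, 69.7 and 50.8 FPKM, were all above the highest control siRNA library at 49.8 FPKM, and the change was not called (log2 change 0.28, limma adjusted p = 0.115). It was called lower than in control siRNA in siCHD4 plus siDNMT1 (log2 change -0.56, limma adjusted p = 0.00116) and siCHD4 plus decitabine (-0.37, adjusted p = 0.0265). The second call was lost without control siRNA replicate 0 or 2 or siCHD4 plus decitabine replicate 0 or 1 (adjusted p up to 0.110), and under quantile normalization (-0.24, adjusted p = 0.0811). HERC6, a relative of the human ISG15 ligase HERC5, stood at 1.95, 2.46 and 2.11 FPKM in siCHD4 plus decitabine and at 3.49, 3.78 and 2.75 FPKM in control siRNA, without overlap (-0.45, adjusted p = 0.0233). That call was lost without control siRNA replicate 0 or 1 or siCHD4 plus decitabine replicate 0 or 2 (adjusted p up to 0.0933). HERC6 was called lower with siCHD4 alone when control siRNA replicate 2 and siCHD4 replicate 2 were both left out (-0.54, limma adjusted p = 0.0344).

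Among the other antiviral genes CMPK2 (GRCh37 chr2:6980701-7006766, minus strand), a mitochondrial nucleotide kinase, gave the largest called change of the 29 genes in siCHD4 with and without siDNMT1. It was listed at 0.950, 1.03 and 1.17 FPKM in siCHD4 plus siDNMT1 and at 3.06, 3.21 and 3.51 FPKM in control siRNA plus siDNMT1. It stood at 2.31, 1.57 and 2.14 FPKM in siCHD4 plus decitabine and at 3.01, 2.62 and 3.29 FPKM in control siRNA plus decitabine. It stood at 2.68, 2.08 and 1.39 FPKM in siCHD4 and at 4.73, 4.49 and 6.37 FPKM in control siRNA. The siCHD4 libraries lay below their controls in each background without overlap. The log2 change was -1.06 ± 0.15 with siDNMT1 (limma adjusted p = 6.92e-05), -0.41 ± 0.15 with decitabine (adjusted p = 0.156) and -1.03 ± 0.15 alone (adjusted p = 0.000366). Against control siRNA it was called lower in siCHD4 plus siDNMT1 (-1.58), siCHD4 plus decitabine (-1.04), control siRNA plus decitabine (-0.63) and control siRNA plus siDNMT1 (-0.53, adjusted p = 0.0351). The last call was lost without control siRNA replicate 0 or 2 or any replicate of control siRNA plus siDNMT1 (adjusted p up to 0.154), and the call of siCHD4 alone in a fit on the compared groups only (adjusted p = 0.0510). When control siRNA replicate 2 and siCHD4 replicate 2 were both left out, the change under siCHD4 with decitabine was called lower too (-0.41, limma adjusted p = 0.0340). CMPK2 overlaps RSAD2 on the opposite strand at its start, and RSAD2 never exceeded 0.274 FPKM.

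IFI35 (GRCh37 chr17:41158757-41166473, plus strand), a regulator of RIG-I signalling, stood at 11.5, 9.91 and 10.4 FPKM in siCHD4 plus siDNMT1 and at 4.54, 4.67 and 6.27 FPKM in control siRNA plus siDNMT1. It stood at 7.64, 7.08 and 6.98 FPKM in siCHD4 plus decitabine and at 8.96, 4.41 and 2.94 FPKM in control siRNA plus decitabine. It stood at 9.20, 11.0 and 8.43 FPKM in siCHD4 and at 6.11, 4.99 and 5.89 FPKM in control siRNA. The siCHD4 libraries lay above their controls with siDNMT1 and alone, and with decitabine the shallow control siRNA plus decitabine replicate 0 lay above them. IFI35 was called higher with siDNMT1 (log2 change 0.92 ± 0.23, limma adjusted p = 0.00426) and in siCHD4 plus siDNMT1 against control siRNA (0.80, adjusted p = 0.00773), and it missed the call alone (0.66 ± 0.23, adjusted p = 0.0578).

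PARP14, an ADP-ribosyltransferase, stood at 19.1, 17.3 and 19.1 FPKM in siCHD4 plus siDNMT1 and at 13.1, 14.6 and 14.0 FPKM in control siRNA plus siDNMT1. It stood at 17.1, 17.7 and 17.1 FPKM in siCHD4 plus decitabine and at 8.65, 13.9 and 14.9 FPKM in control siRNA plus decitabine. It stood at 17.0, 16.3 and 20.3 FPKM in siCHD4 and at 12.4, 12.8 and 13.1 FPKM in control siRNA. The siCHD4 libraries lay above their controls in each background without overlap. The log2 changes were alike in size, 0.39 ± 0.14 with siDNMT1 (limma adjusted p = 0.0315), 0.47 ± 0.14 with decitabine (adjusted p = 0.0734) and 0.45 ± 0.14 alone (adjusted p = 0.0372). The call with siDNMT1 was lost without control siRNA plus siDNMT1 replicate 0 or 2 or siCHD4 plus siDNMT1 replicate 0 or 2 (adjusted p up to 0.0990). The call alone was lost without any replicate of control siRNA or siCHD4 replicate 0 or 2 (adjusted p up to 0.124). It was lost as well when control siRNA replicate 2 and siCHD4 replicate 2 were both left out (0.38, limma adjusted p = 0.145). In that fit PARP14 was called higher under siCHD4 with decitabine (0.47, adjusted p = 0.0476). Against control siRNA it was called in siCHD4 plus siDNMT1 (0.50, adjusted p = 0.00674) and in siCHD4 plus decitabine (0.41, adjusted p = 0.0343), and the decitabine call was lost without any 1 of the 6 libraries compared (adjusted p up to 0.0946).

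MX1, a GTPase that blocks virus replication, was the 1 gene of the 29 called under siCHD4 with decitabine. It stood at 7.04, 6.99 and 7.08 FPKM in siCHD4 plus decitabine and at 5.96, 4.43 and 4.95 FPKM in control siRNA plus decitabine, against 6.54, 6.95 and 6.54 FPKM in control siRNA. The siCHD4 plus decitabine libraries were near those of control siRNA, and the control siRNA plus decitabine libraries were below both. The log2 change was 0.40 ± 0.09 in siCHD4 plus decitabine against control siRNA plus decitabine (limma adjusted p = 0.0133) and -0.34 ± 0.09 in control siRNA plus decitabine against control siRNA (adjusted p = 0.0146). The first was lost without control siRNA plus decitabine replicate 1 or siCHD4 plus decitabine replicate 0 or 1 (adjusted p up to 0.0580), and the second without control siRNA replicate 1 or control siRNA plus decitabine replicate 1 (adjusted p = 0.0622 and 0.0562).

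SAMD9, a growth and virus restriction factor, had the largest SE of the 29 genes (0.39). It stood at 15.4, 15.2 and 14.8 FPKM in siCHD4 plus siDNMT1 and at 9.26, 9.56 and 7.79 FPKM in control siRNA plus siDNMT1, without overlap. In siCHD4 it stood at 7.42, 11.6 and 22.0 FPKM and in control siRNA at 11.7, 12.7 and 2.75 FPKM, so replicate 2 was the highest of its group on one side and the lowest on the other. It was not called in any comparison over all 18 libraries (limma adjusted p = 0.142 with siDNMT1), and with both replicates 2 left out it was called higher under siCHD4 with siDNMT1 (log2 change 0.71, adjusted p = 0.000638) and with decitabine (0.70, adjusted p = 0.00587). In the same fit it was called lower than in control siRNA in control siRNA plus decitabine (-1.44, adjusted p = 3.16e-05) and in siCHD4 plus decitabine (-0.74, adjusted p = 0.00198). PARP9, the partner of DTX3L in antiviral ubiquitination, ranged from 4.98 to 11.3 FPKM and was not called.

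**Figure D3:**
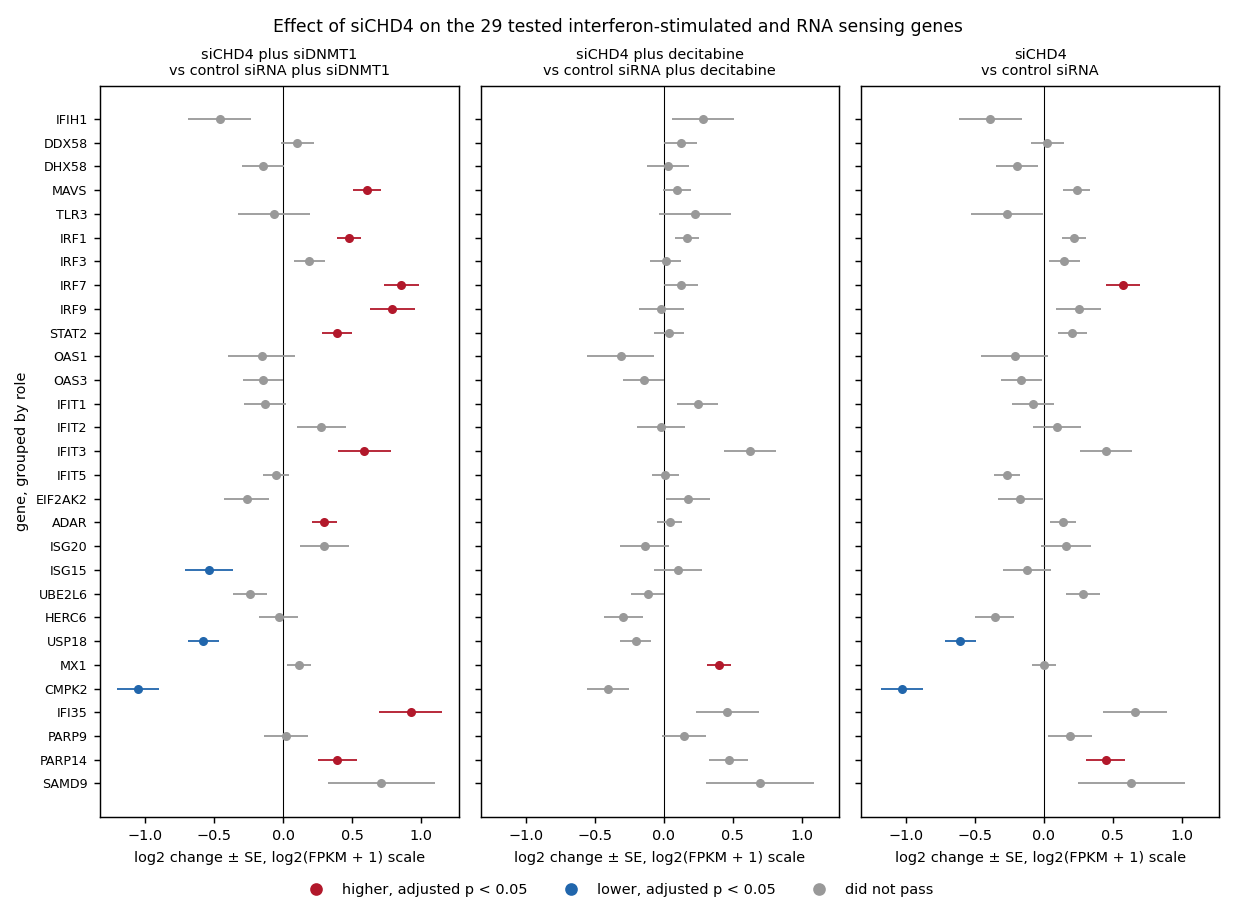
Log2 change with its SE, on the log2(FPKM + 1) scale, of each of the 29 tested genes under siCHD4 in 3 backgrounds: with siDNMT1 (left), with decitabine (middle) and alone (right). Red marks genes called higher, blue genes called lower and grey genes that did not pass, and CMPK2 lies farthest left in each panel.

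Whether siCHD4 acted differently in another background was tested as the difference between its effects. The backgrounds also differ in schedule and in the CHD4 level left under siCHD4. That level was 41.6% of control with siDNMT1, 72.1% with decitabine and 49.9% alone. A difference of effects cannot tell these apart from the background itself. For siDNMT1 against siCHD4 alone, 0 of the 29 genes were called in limma (all genes 2.83% higher and 1.29% lower), 3 had an unadjusted p under 0.05 and the smallest adjusted p was 0.104, for UBE2L6 (difference -0.52 ± 0.17). For decitabine against siCHD4 alone, 0 of the 29 were called (all genes 0.773% higher and 0.383% lower), 5 had an unadjusted p under 0.05 and the smallest adjusted p was 0.149, for MX1 (difference 0.40 ± 0.12). For IRF7 the difference was 0.28 ± 0.18 with siDNMT1 (adjusted p = 0.402) and -0.45 ± 0.18 with decitabine (adjusted p = 0.249), and for IRF9 it was 0.54 ± 0.23 with siDNMT1 (adjusted p = 0.216). The larger number of calls with siDNMT1 is therefore not shown to be a different effect on these genes. With both replicates 2 left out, 3 genes were called higher (TLR3, IFIT5 and SAMD9) and 1 lower (UBE2L6) for siDNMT1, and 3 were called higher for decitabine (IFIH1, TLR3 and SAMD9).

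Of the 10 genes that never reached 1 FPKM, the DNA sensor IFI16 was listed at 0 in all 18 libraries, and IFI44L and XAF1 were above 0 in 3 libraries each. Depth is not given in reads, so a value of 0 sets no limit on these genes. The summed FPKM of the 10 genes was 2.24, 2.06 and 1.97 in siCHD4 plus siDNMT1 and 0.684, 1.02 and 1.17 in control siRNA plus siDNMT1. The sums were 1.21, 0.819 and 0.932 in siCHD4 plus decitabine and 0.702, 1.02 and 0.405 in control siRNA plus decitabine. They were 0.290, 0.527 and 0.939 in siCHD4 and 0.348, 0.259 and 0.485 in control siRNA. The 3 libraries of siCHD4 plus siDNMT1 were the highest of the 18, and the other siCHD4 groups overlapped their controls.

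The RNase L activator OAS2 stood at 0.231, 0.189 and 0.309 FPKM in siCHD4 plus siDNMT1 and at 0.0309, 0.0679 and 0.0327 FPKM in control siRNA plus siDNMT1, and was listed at 0 in all 3 control siRNA libraries. MX2, the nuclear relative of MX1, stood at 0.431, 0.391 and 0.326 FPKM in siCHD4 plus siDNMT1 and at 0.0374, 0.0822 and 0.158 FPKM in control siRNA plus siDNMT1. OASL, which binds RIG-I, stood at 0.907, 0.515 and 0.329 FPKM in siCHD4 plus siDNMT1 and at 0.0548, 0.121 and 0.174 FPKM in control siRNA plus siDNMT1. All 3 genes were separated between the groups. In a fit without the filter on low values all 3 were called higher in that comparison (limma adjusted p = 0.000248 for OAS2, 0.000203 for MX2 and 0.00901 for OASL). SAMD9L was called higher there as well (adjusted p = 0.0282), and HERC5, RSAD2, IFI44, IFI44L and XAF1 were not called. The share of all genes called in that fit is not given here, so these calls have no background beside them. In the same fit the siCHD4 effect with siDNMT1 exceeded the effect alone for OAS2 (difference 0.22, limma adjusted p = 0.0329) and MX2 (0.29, adjusted p = 0.0341). Over all genes that fit called more differences higher than the fit with the filter, as counted at the end. The OAS2 and MX2 differences are therefore not shown to be particular to these genes. The ISG15 ligase HERC5 was listed at 0 in all 6 libraries without siDNMT1 or decitabine and was above 0 in all 12 with either, at 0.298, 0.617 and 0.515 FPKM in siCHD4 plus siDNMT1 and 0.280, 0.376 and 0.526 FPKM in control siRNA plus siDNMT1. HERC5 overlapped between siCHD4 and control siRNA in both backgrounds. SAMD9L stood at 0.143, 0.109 and 0.130 FPKM in siCHD4 plus siDNMT1 and at 0.0891, 0.0980 and 0.0785 FPKM in control siRNA plus siDNMT1, and it was at or below 0.0333 FPKM in the other libraries. IFI44 and RSAD2 (viperin) stayed at or below 0.274 FPKM.

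**Figure D4:**
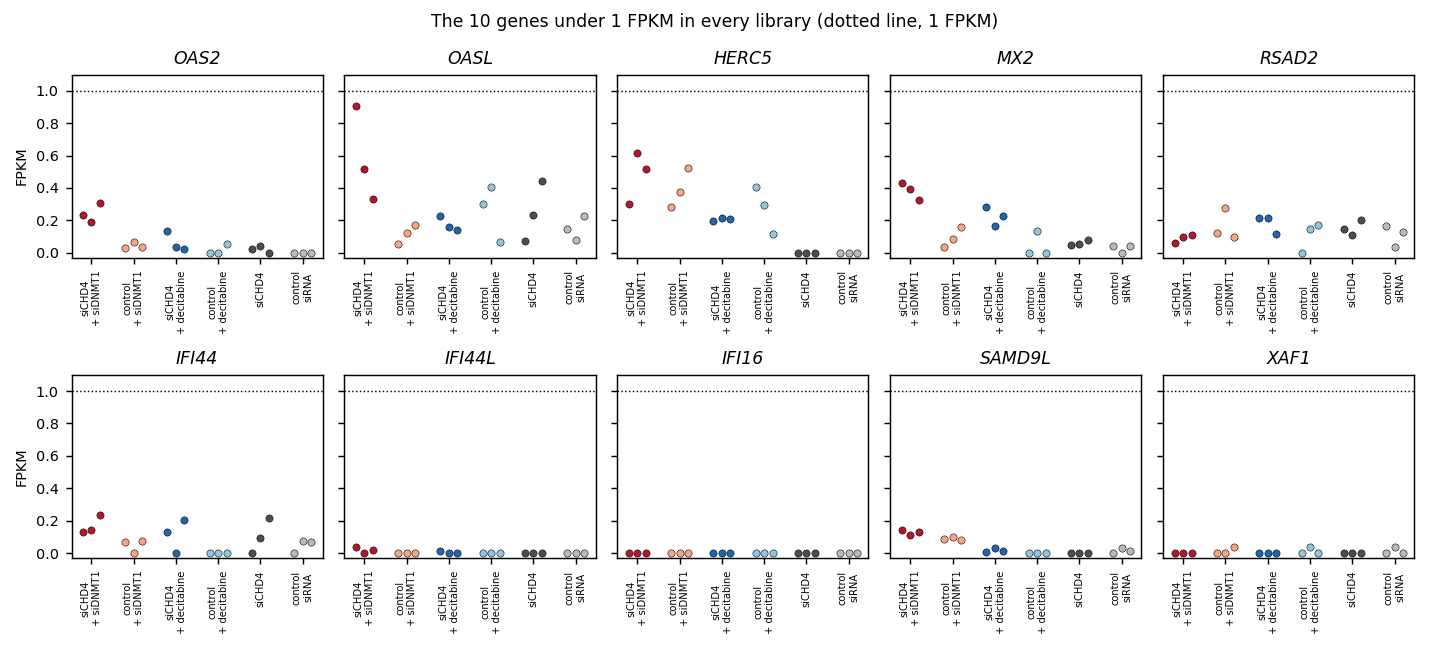
FPKM of the 10 genes that stayed under 1 FPKM (dotted line) in every library, with 3 points per group. OAS2, OASL and MX2 are highest in siCHD4 plus siDNMT1, and HERC5 is at 0 in siCHD4 and control siRNA.

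The interferon ligands themselves were scarce. Of the 20 type I and III interferon genes measured, 6 were listed at 0 in all libraries, IFNB1 among them, 16 never reached 1 FPKM, and 2 were tested, IFNA1 and IFNE. IFNE, an epithelial type I interferon, stood at 11.1, 9.43 and 9.15 FPKM in siCHD4 plus siDNMT1 and at 5.20, 5.37 and 6.02 FPKM in control siRNA plus siDNMT1. It stood at 10.9, 9.38 and 8.93 FPKM in siCHD4 and at 3.15, 3.47 and 7.23 FPKM in control siRNA. With decitabine it stood at 7.32, 6.75 and 4.46 FPKM in siCHD4 plus decitabine and at 2.11, 4.78 and 3.56 FPKM in control siRNA plus decitabine. The siCHD4 libraries lay above their controls with siDNMT1 and alone and overlapped them with decitabine (log2 change 0.70, limma adjusted p = 0.131). IFNE was called higher with siDNMT1 (log2 change 0.74 ± 0.25, limma adjusted p = 0.0220) and alone (1.00 ± 0.25, adjusted p = 0.0108). IFNA1 stood at 3.93, 3.45 and 3.43 FPKM in siCHD4 plus siDNMT1 and at 1.26, 2.25 and 1.66 FPKM in control siRNA plus siDNMT1. In siCHD4 it stood at 1.26, 1.33 and 1.85 FPKM and in control siRNA at 0.330, 0.883 and 0.494 FPKM, again without overlap. It was called higher with siDNMT1 (log2 change 0.77 ± 0.20, limma adjusted p = 0.00593) and alone (0.67 ± 0.20, adjusted p = 0.0327). In siCHD4 plus decitabine IFNA1 stood at 1.096, 1.09 and 1.30 FPKM and in control siRNA plus decitabine at 2.72, 1.66 and 0.878 FPKM, overlapping and not called (-0.30, adjusted p = 0.434). IFNA1 has a near-identical copy, IFNA13, so the split of reads between them is uncertain.

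Other genes of the pathway were taken as lists. Among 46 other tested interferon-induced genes, 10 were called higher and 10 lower in siCHD4 plus siDNMT1 against control siRNA plus siDNMT1, 2 higher and 1 lower with decitabine, and 4 higher and 3 lower alone. Among 23 adaptors and kinases downstream of the sensors, the counts were 6 higher and 5 lower with siDNMT1, 0 and 0 with decitabine, and 1 higher and 4 lower alone. Among 9 interferon receptors and kinases 1 was called higher with siDNMT1 and 1 alone, and 0 were called lower or with decitabine. Among 19 negative regulators 3 were called higher and 6 lower with siDNMT1, 0 and 0 with decitabine, and 1 higher and 2 lower alone. Of all genes, 24.8% were called higher and 24.6% lower with siDNMT1, 3.26% and 1.31% with decitabine, and 9.58% and 9.71% alone. Whether any list departed from these shares was not tested, and the shorter lists rest on few calls.

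BST2, which tethers budding virus particles, gave the largest of these changes. It stood at 78.1, 99.1 and 85.0 FPKM in siCHD4 plus siDNMT1 and at 2.39, 3.56 and 1.94 FPKM in control siRNA plus siDNMT1 (log2 change 4.62, limma adjusted p = 2.97e-08), and at 11.4, 17.4 and 21.2 FPKM in siCHD4 against 0.148, 0.158 and 0 FPKM in control siRNA. IFI27, a mitochondrial protein induced by interferon, stood at 18.0, 23.5 and 18.9 FPKM in siCHD4 plus siDNMT1 and at 1.87, 0.257 and 2.23 FPKM in control siRNA plus siDNMT1 (3.21, adjusted p = 1.44e-06). The groups of both genes were far apart. IFI6, an inhibitor of apoptosis, stood at 20.1, 20.2 and 19.9 FPKM in siCHD4 plus siDNMT1 and at 10.8, 8.62 and 8.06 FPKM in control siRNA plus siDNMT1 (1.06, adjusted p = 0.000423). IFITM1, which blocks virus entry, stood at 54.0, 52.8 and 53.5 FPKM in control siRNA plus siDNMT1 and at 39.4, 41.2 and 28.5 FPKM in control siRNA plus decitabine, against 1.91, 2.50 and 2.97 FPKM in control siRNA. Its log2 change from control siRNA was 3.99 with siDNMT1 (adjusted p = 2.35e-09) and 3.43 with decitabine (adjusted p = 1.27e-08), larger than that of any of the 29 genes in those comparisons. PNPT1, a mitochondrial RNA exonuclease, moved the other way, at 9.93, 11.3 and 11.8 FPKM in siCHD4 plus siDNMT1 and 22.4, 22.8 and 20.8 FPKM in control siRNA plus siDNMT1 (-0.94, adjusted p = 4.56e-05).

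Over the 7 comparisons of groups the 29 genes gave 60 calls. The shares of all genes called in each comparison stand above, and a total over all genes is not given. The 60 calls are therefore not shown to be particular to these genes. The comparisons share groups, so several calls of 1 gene are not separate results. CMPK2 and USP18 were each called lower in 6 of the 7, IRF7 higher in 5, ISG15 higher in 4 and lower in 1, PARP14 higher in 4, MAVS and IRF1 higher in 3 and OAS1 lower in 3. IFIH1, IFIT2, IFIT5, PARP9 and SAMD9 were called in none. Of the 60 calls, 34 held with each of the 18 libraries left out in turn and 30 in every alternative run. Of the 4 calls of siCHD4 against control siRNA, 0 held in every alternative, and of the 12 with siDNMT1, 8 did.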

How the data were processed

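Total RNA with ribosomal RNA removed was sequenced from 18 libraries in a stranded protocol, per the labels' protocols. The deposited values are FPKM per gene, which the authors made with TopHat2 2.0.9 and Cuffdiff 2.1.1 on hg19, per the submitters' processing notes. Not given in the sources used here are the gene annotation, any filter and any scaling across libraries. Read counts and depth are unknown, so no count model, interval or detection limit was used.

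Groups follow the labels. Of 23599 entries, 28 whose names had turned into dates were left out (0.119%). The 12809 genes that reached 1 FPKM in 3 or more libraries were fitted as log2(FPKM + 1) with limma 3.58.1 in R 4.3.3 over all 6 groups, with Benjamini-Hochberg adjustment and a threshold of 0.05, and the fit was tested on simulated data. Exact permutation tests used scipy 1.17.1, and figures used Python 3.11.15 and matplotlib 3.10.9. Values in every library are given for genes among the 8 largest called changes of a comparison and for IRF7, IRF9 and STAT2. The members and gene lists were chosen with earlier results of these data known.

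Alternatives were a pseudocount of 0.1, no filter, median ratio and quantile rescaling, a replicate block, fits on the compared groups only, and each library left out. Leaving out both control siRNA replicate 2 and siCHD4 replicate 2 was chosen after seeing the data. Deviations of same-numbered libraries correlated at r between -0.31 and 0.126 over 45 pairs, 5 of them above 0.1, so the numbers were not taken to pair the libraries. Coordinates come from a GENCODE annotation on GRCh37, and promoter windows from RefSeq on GRCh38.p14. One gene of the pathway lists is not reported here.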

Additional observations from a re-analysis of the deposited data

Results flagged for a closer look

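In 5 genes outside the 39, all from the pathway lists, the siCHD4 effect with siDNMT1 differed from the siCHD4 effect alone in limma's test of the difference itself. Of all genes tested, 2.83% were called higher and 1.29% lower for that difference. Whether the pathway lists departed from these shares was not tested. The 2 siCHD4 effects also differ in schedule, which cannot be told apart from the siDNMT1 background. For IFI27 the difference was 2.77 on the log2(FPKM + 1) scale (adjusted p = 0.00107). For IFITM1 it was -1.62 (adjusted p = 0.00266), and siCHD4 was called lower with siDNMT1 (-0.59) and higher alone (1.04). For APOL1, which is best known as a trypanosome-killing serum protein, it was 1.14 (adjusted p = 0.0150). For LAP3, a leucine aminopeptidase, it was -0.51 (adjusted p = 0.0150). For TNFAIP2, a gene induced by TNF, it was 0.52 (adjusted p = 0.0413).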

How the results depend on the processing

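Counts of the 29 tested genes are given as higher and lower. None of the changes called in the full fit reversed under the alternatives run. With 1 library left out, they ranged from 1 to 4 and 2 to 4 in siCHD4 against control siRNA (2 and 2 in the full fit), and from 6 to 10 and 2 to 5 in siCHD4 plus siDNMT1 against control siRNA plus siDNMT1 (9 and 3). They ranged from 0 to 3 and 0 to 0 in siCHD4 plus decitabine against control siRNA plus decitabine (1 and 0). Against control siRNA they ranged from 10 to 13 and 5 to 7 with siCHD4 plus siDNMT1 (11 and 7), 1 to 2 and 1 to 4 with control siRNA plus siDNMT1 (1 and 3), 2 to 6 and 3 to 6 with siCHD4 plus decitabine (6 and 6) and 2 to 4 and 2 to 6 with control siRNA plus decitabine (3 and 6). For the differences of effects they ranged from 0 to 1 and 0 to 1 with siDNMT1 and from 0 to 1 and 0 to 0 with decitabine. The lowest counts came without control siRNA replicate 0, 1 or 2 or siCHD4 replicate 0 for siCHD4 (1 higher), and without control siRNA replicate 2 or any replicate of control siRNA plus siDNMT1 for control siRNA plus siDNMT1 (1 lower). For control siRNA plus decitabine, 2 or 3 were lower without control siRNA replicate 0 or 1 or control siRNA plus decitabine replicate 1. For siCHD4 plus decitabine against control siRNA, 2 or 3 were higher without control siRNA replicate 0 or 2 or any replicate of siCHD4 plus decitabine, and 3 were lower without replicate 0 of either group. The calls of a difference appeared without control siRNA plus decitabine replicate 0 or siCHD4 replicate 2. In siCHD4 against control siRNA the counts were 1 higher without the filter on low values, 4 lower with quantile normalization, 0 higher and 0 lower in a fit on the compared groups only, and 1 higher and 7 lower without both control siRNA replicate 2 and siCHD4 replicate 2. In siCHD4 plus siDNMT1 against control siRNA plus siDNMT1, 6 were lower with quantile normalization and 6 in a fit on the compared groups only. In siCHD4 plus decitabine against control siRNA plus decitabine, 2 were higher with a pseudocount of 0.1, 2 without the filter, 0 with quantile normalization and 0 in a fit on the compared groups only, and 4 were higher and 1 lower without both replicates 2. Against control siRNA, control siRNA plus siDNMT1 had 3 higher and 1 lower without the filter, 5 lower in a fit on the compared groups only and 2 higher without both replicates 2. Control siRNA plus decitabine had 1 lower in a fit on the compared groups only, and siCHD4 plus siDNMT1 had 11 lower with quantile normalization. For the difference of effects with siDNMT1, 2 were higher without the filter (OAS2 and MX2), and 3 were higher and 1 lower without both replicates 2, while with decitabine 3 were higher without both. With the replicate block, the counts in the order of the first 3 comparisons above were 2 and 2, 9 and 3, and 1 and 0, and 7 calls of the 29 genes against control siRNA were lost. The cause of these shifts was not tested. Over all genes, a fit on the compared groups only called 272 higher and 242 lower in siCHD4 against control siRNA (1227 and 1244 in the full fit), 131 and 16 in siCHD4 plus decitabine against control siRNA plus decitabine (418 and 168), 1487 lower in control siRNA plus siDNMT1 against control siRNA (563), 552 and 377 in control siRNA plus decitabine against control siRNA (1230 and 1105), and 34 and 8 for the difference with decitabine (99 and 49). Without the filter, 673 were higher in siCHD4 plus decitabine against control siRNA plus decitabine, 5670 in siCHD4 plus siDNMT1 against control siRNA (3752), 861 for the difference with siDNMT1 (363) and 158 for that with decitabine. For these differences a pseudocount of 0.1 gave 205 and 60 higher, the replicate block gave 91 (165 in the full fit) and 26 lower, and quantile normalization gave 286 lower with siDNMT1. Without both replicates 2, the counts were 755 higher and 574 lower in siCHD4 plus decitabine against control siRNA plus decitabine, 1166 and 1503 for the difference with siDNMT1, and 277 and 253 for that with decitabine.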

Other observations

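Among the other pathway genes, the receptor chain IL10RB, which is shared by interleukin 10 and type III interferons, was listed at 12.1, 13.3 and 16.7 FPKM in siCHD4 and at 8.56, 7.05 and 8.66 FPKM in control siRNA. MYD88, the adaptor of most Toll-like receptors, stood at 10.1, 8.37 and 11.7 FPKM in siCHD4 and at 3.83, 5.66 and 6.02 FPKM in control siRNA. Neither gene overlapped between the groups, and both were called higher by limma (log2 change 0.72, adjusted p = 0.00223 for IL10RB and 0.85, adjusted p = 0.0255 for MYD88). The aminopeptidase LAP3 stood at 31.5, 33.1 and 31.7 FPKM in siCHD4 plus siDNMT1 and at 65.4, 64.7 and 62.9 FPKM in control siRNA plus siDNMT1, without overlap (log2 change -0.98, limma adjusted p = 2.75e-07). APOL1 stood at 4.36, 3.79 and 4.84 FPKM in siCHD4 plus siDNMT1 and at 0.929, 1.26 and 0.831 FPKM in control siRNA plus siDNMT1, also without overlap (1.41, limma adjusted p = 1.92e-05). TNFSF10, the death ligand TRAIL, stood at 2.81, 3.73 and 2.31 FPKM in siCHD4 plus siDNMT1 and at 0.884, 0.922 and 0.998 FPKM in control siRNA plus siDNMT1 (1.01, limma adjusted p = 0.00839). The siCHD4 plus siDNMT1 libraries were the 3 highest of the 18 for APOL1.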
